A study of Homo sapiens with 9 samples.

Results

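The HOX genes of the 4 clusters were followed in HCT116 colon cancer cells in which 1 isoform of tazarotene-induced gene 1 (TIG1, gene symbol RARRES1) had been induced. Members were the genes whose symbol begins with HOXA, HOXB, HOXC or HOXD and a digit in the annotation of the array, antisense transcripts left out. These were 28 of the 19775 genes that a probe set names by 1 symbol, and they were read by 47 probe sets. Of those, 3 probe sets carry the symbols of HOXD3 and HOXD4 together and were assigned to no single gene. TIG1A stable cells (3 arrays), TIG1B stable cells (3 arrays) and control stable cells (3 arrays) were compared on Affymetrix HG-U133 Plus 2.0 arrays. These measure RNA as a signal computed from the brightness of the short probes of a probe set. Each group is 1 inducible clone of HCT116 made with the GeneSwitch system. In this system the integrated pSwitch plasmid makes a regulator protein that mifepristone (MFP) activates, and a pGene/V5 plasmid carries TIG1A, TIG1B or, in control cells, no insert. MFP was given to all 9 cultures, at 5 nM for 24 h, so that control cells carry the regulator and the drug as well. Because each group is a single clone, effects of the induced isoform and differences between clones cannot be told apart.

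HOX genes encode homeodomain transcription factors that assign position along the body axis. Within a cluster they lie in the order in which they are used along the axis, from low-numbered anterior genes to high-numbered posterior genes, and retinoic acid acts on the low-numbered end. Adult colon epithelium and colon cancer cells keep part of this pattern. Polycomb proteins hold HOX clusters silent, Trithorax proteins keep them active, and the TALE proteins PBX, MEIS and PKNOX bind DNA together with HOX proteins.

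The windows upstream of a few start sites are shown because they belong to genes whose clusters behaved differently on these arrays. HOXC4 and HOXC5 were both measured, HOXD8 was the single HOXD gene that passed the filter on low intensities, and HOXB1 was the single HOXB gene that did not. Each sequence is the 250 bases before the annotated start, from RefSeq on GRCh38.p14, 5′ to 3′ on the strand of the gene, with every CG dinucleotide in capitals. HOXC4 and HOXC5 have the same window, chr12:54016638-54016887 on the plus strand. The window of HOXD8 is chr2:176129455-176129704 on the plus strand, and that of HOXB1 is chr17:48531012-48531261 on the minus strand.
HOXC4 and HOXC5: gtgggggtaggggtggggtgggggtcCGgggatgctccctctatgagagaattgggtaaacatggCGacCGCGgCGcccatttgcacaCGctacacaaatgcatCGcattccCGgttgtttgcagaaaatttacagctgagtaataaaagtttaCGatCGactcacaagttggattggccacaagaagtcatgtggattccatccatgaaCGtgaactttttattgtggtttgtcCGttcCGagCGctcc
HOXD8: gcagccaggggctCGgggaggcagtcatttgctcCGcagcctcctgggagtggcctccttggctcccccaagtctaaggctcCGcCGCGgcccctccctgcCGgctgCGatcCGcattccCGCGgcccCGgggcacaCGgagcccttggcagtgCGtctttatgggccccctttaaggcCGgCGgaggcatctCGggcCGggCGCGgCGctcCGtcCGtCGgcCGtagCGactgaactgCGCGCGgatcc
HOXB1: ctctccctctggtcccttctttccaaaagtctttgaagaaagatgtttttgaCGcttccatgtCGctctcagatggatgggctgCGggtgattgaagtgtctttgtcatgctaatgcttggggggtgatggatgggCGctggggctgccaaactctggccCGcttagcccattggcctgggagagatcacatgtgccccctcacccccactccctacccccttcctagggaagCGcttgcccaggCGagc
The sequence table matched 11 of the 28 genes. CG (read the same on both strands) occurs 28 times before HOXD8, 14 times before HOXC4 and HOXC5 and 7 times before HOXB1. Of 35116 promoters of this length, 15.9%, 44.8% and 58.9% hold at least as many. HOXD1, whose 2 probe sets were below the array median on every array, has 31, so that the number of CG dinucleotides did not order these genes by detection.

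Most HOXB and HOXC probe sets passed the filter on low intensities and most HOXD probe sets did not, while the HOXA cluster was read for 1 of its 11 genes. On chromosome 17, 15 of 19 HOXB probe sets passed the filter, and on chromosome 12, 7 of 9 HOXC probe sets did. On chromosome 2 it was 1 of 18 HOXD probe sets, and on chromosome 7 HOXA2, the only HOXA gene named in the annotation used here, did not pass on its 1 probe set. The filter asked for an intensity at or above the array median on 2 or more of the 3 arrays in TIG1A, TIG1B or control cells. In all, 23 of 47 HOX probe sets passed, for 17 of 28 genes. Of the 47, 17 were at or above the array median on all 9 arrays and 14 on none. The number at or above it on an array was 22, 23 and 23 in TIG1A cells and 22, 23 and 26 in TIG1B cells. In control cells it was 20, 20 and 23, so that the groups overlap. The array medians used for this count were 59.9 to 69.9 in the TIG1 lines and 68.6 to 73.9 in control cells.

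**Figure D1:**
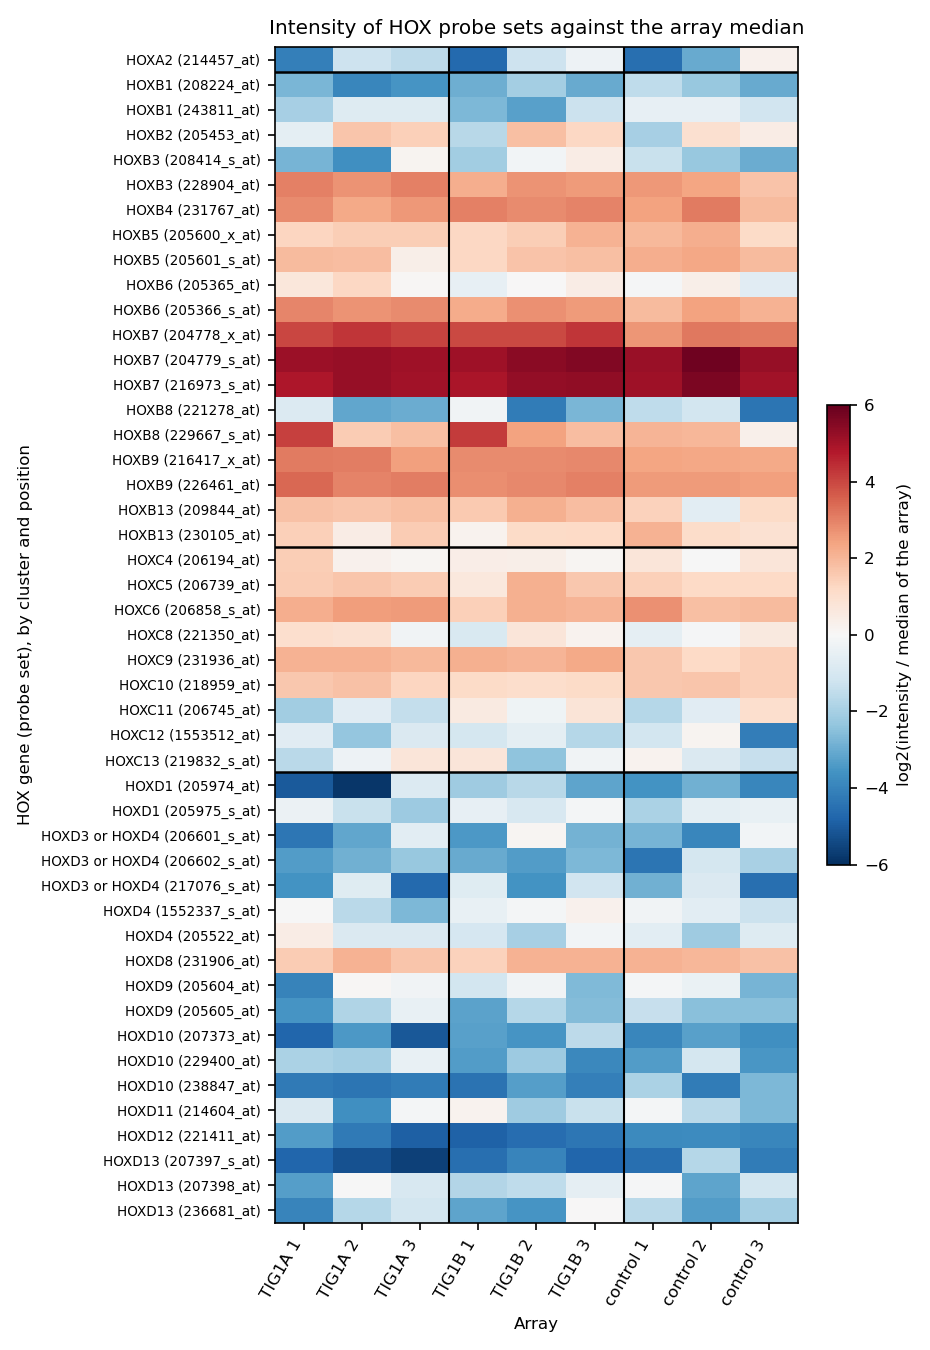
Intensity of each of the 47 HOX probe sets (rows, by cluster and position) on each of the 9 arrays (columns), as log2 of intensity over the median of the array. HOXB rows are mostly red and HOXD rows, except HOXD8, mostly blue in all 3 groups.

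In the HOXB cluster the gene at the anterior end was the one that failed. HOXB2 to HOXB9 and HOXB13 each had a probe set that passed, and 12 HOXB probe sets were at or above the median on all 9 arrays. HOXB1, which patterns the hindbrain, was below it everywhere, with 3.96 to 39.3 in TIG1A cells, 6.66 to 25.4 in TIG1B cells and 9.16 to 52.2 in control cells over its probe sets 208224_at and 243811_at. HOXB8 and HOXB3 each had another probe set that failed the filter, so detection there depended on the probe set. In the HOXC cluster HOXC4 to HOXC11 passed, and HOXC12 and HOXC13, the most posterior genes of that cluster, did not. In the HOXD cluster 11 of 18 probe sets were below the median on all 9 arrays. The 24 HOX probe sets that failed reached at most 117 on any array (HOXC13 in TIG1B replicate 1).

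The arrays were checked against their labels. RARRES1 (206392_s_at) was at 58450 to 66750 in TIG1A cells and 36410 to 44510 in TIG1B cells, against 2.90 to 5.17 in control cells. The trimmed mean (2% of probe sets removed at each end) was 500.1 on every array, and the array medians were 59.9 to 67.2 in TIG1A cells, 62.0 to 69.9 in TIG1B cells and 68.6 to 73.9 in control cells. Of 8 colon epithelial markers 5 were above the median on all 9 arrays. CDX2, an intestinal factor that acts on HOX genes, was above it on 8. Of 5 fibroblast markers 1 was above it on all arrays (COL1A1, 1312 to 1644 in TIG1A cells, 890.2 to 908.1 in TIG1B cells and 426 to 774 in control cells), and LUM on none. The summed fibroblast level, 1414 to 1880 in TIG1A cells, 953 to 1103 in TIG1B cells and 537 to 996 in control cells, was mostly COL1A1, and the other 4 markers overlapped between the groups. Some epithelial markers differed between the groups. KRT19 was at 11150 to 11780 in TIG1A cells and 10370 to 12020 in TIG1B cells, against 17460 to 18690 in control cells. KRT8 was at 13480 to 18870 in TIG1A cells and 19770 to 24530 in TIG1B cells, against 22700 to 25880 in control cells. CDH1 was at 6023 to 6961 in TIG1A cells and 4790 to 4983 in TIG1B cells, against 3850 to 4806 in control cells. EPCAM and KRT18 overlapped between the groups. VIL1 was above the median on 3 arrays, at 27.4 to 77.6 in TIG1A, 61.1 to 89.1 in TIG1B and 8.43 to 55.8 in control cells. LGALS4 was above it on 6, at 26.4 to 90.8 in TIG1A, 27.5 to 107.8 in TIG1B and 105.4 to 122 in control cells. Of 4 leukocyte and 3 endothelial markers, 1 each was above the median throughout (CD79A and PECAM1), and CD14 and VWF were so on no array. The summed endothelial level was 92.8 to 141 in TIG1A cells and 122 to 178 in TIG1B cells, against 169 to 245 in control cells. It was mostly PECAM1, at 77.4 to 104 in TIG1A, 101.5 to 157 in TIG1B and 139 to 222 in control cells. CDH5, like VWF, was below the median on all 9 arrays, and CDH5 overlapped between each line and control. The part of these markers in the results was not tested.

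HOXB7 was the HOX gene whose level differed between both TIG1 lines and control cells past the threshold, and it did so on 1 of its 3 probe sets. HOXB7 is a trunk-level homeodomain factor that is raised in several carcinomas. On 204778_x_at it was at 1056, 1162 and 1116 in TIG1A cells (mean 1111 ± 53.2) and 1080, 992 and 1198 in TIG1B cells (1090 ± 103), against 457, 623 and 651 in control cells (577 ± 105; SD, n = 3 each). Neither line overlapped with control, and the lines overlapped with each other. The difference was 0.96 (SE 0.17, 95% confidence interval 0.57 to 1.36) on the log2 scale for TIG1A, or 1.95-fold, with an adjusted p of 0.0242 in limma. For TIG1B it was 0.93 (0.54 to 1.32), or 1.91-fold, with an adjusted p of 0.0435 in limma. The same 3 control arrays serve both comparisons. TIG1A and TIG1B cells differed by 0.03 (-0.36 to 0.43; limma adjusted p = 0.961).

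The other probe sets of HOXB7 did not show this rise. On 204779_s_at HOXB7 was at 2263, 2241 and 2249 in TIG1A cells and 2374, 2636 and 2962 in TIG1B cells, against 2665, 3944 and 2808 in control cells. All TIG1A arrays lay below all control arrays, and the TIG1B arrays overlapped with them. The differences were -0.46 for TIG1A (-0.87 to -0.04; limma adjusted p = 0.164) and -0.22 for TIG1B (-0.64 to 0.19; limma adjusted p = 0.543). On 216973_s_at the values were 1870, 2260 and 2183 in TIG1A cells and 2071, 2402 and 2468 in TIG1B cells, against 2449, 3478 and 2446 in control cells. Here too the TIG1A arrays were the lower ones without overlap, by 0.39 on the log2 scale (limma adjusted p = 0.228), and TIG1B differed by -0.25 (limma adjusted p = 0.496). The probe sets therefore changed unequally within an array.

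The ratio of 204778_x_at to 204779_s_at was 0.467, 0.519 and 0.496 in TIG1A cells and 0.455, 0.376 and 0.404 in TIG1B cells, against 0.171, 0.158 and 0.232 in control cells. Every TIG1 array was above every control array. As log2 ratios the differences were 1.42 for TIG1A and 1.15 for TIG1B, and against 216973_s_at they were 1.35 and 1.19. These ratios restate the values above, were formed after those had been seen and are given with no test. The suffix x_at marks probe sets with probes that may also bind other transcripts. Which transcripts each probe set reads was not tested.

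**Figure D2:**
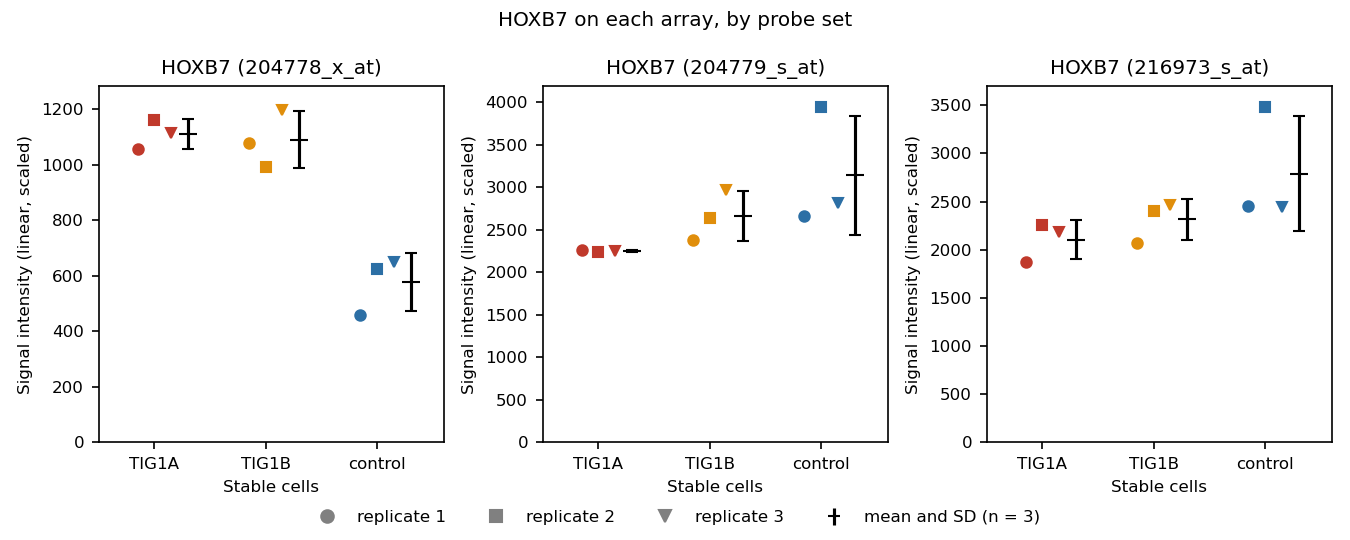
Signal intensity (linear, scaled) of the 3 HOXB7 probe sets on each array, with TIG1A, TIG1B and control cells from left to right, 1 symbol per array, and bars for the mean and SD (n = 3). On 204778_x_at both TIG1 lines (992 to 1198) lie above control cells (457 to 651), whereas on 204779_s_at TIG1A cells (2241 to 2263) lie below them (2665 to 3944).

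The call on HOXB7 rests on small numbers of arrays. With 1 array left out at a time, the log2 difference stayed at 0.80 to 1.06 for TIG1A and 0.77 to 1.03 for TIG1B. The limma adjusted p for TIG1A then ran from 0.0208 to 0.0863 and was above 0.05 without TIG1A replicate 1, 2 or 3 or control replicate 2. For TIG1B it ran from 0.0421 to 0.133, and it stayed under the threshold only without control replicate 1.

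Over all 23 HOX probe sets tested, 1 was called in TIG1A cells against control, where 6.06% of all 29977 probe sets were called (2.86% higher and 3.2% lower in TIG1A). Against control, TIG1B cells also had 1 called, where 1.78% of all probe sets were (0.701% higher and 1.08% lower in TIG1B). As a share of the HOX probe sets this is 4.35% in each comparison. Before adjustment, limma gave a p under 0.05 for 4 higher and 2 lower HOX probe sets in TIG1A cells, where 25% of all probe sets reached it, and for 2 higher and 1 lower in TIG1B cells, where 18.5% did. The arrays of TIG1A and control cells did not overlap for 5 higher and 3 lower HOX probe sets, 34.8% against 30.7% of all. For TIG1B there were 5 higher and 2 lower, 30.4% against 24.9%. The median log2 difference of HOX probe sets was 0.14 for TIG1A and 0.05 for TIG1B, beside -0.04 and -0.03 over all probe sets. Centring each array on its median moved these to 0.31 and 0.20 for HOX and to 0.12 and 0.12 for all. It also moved the share of all calls that were higher to 78.1% for TIG1A and 70.5% for TIG1B, where the deposited scaling gave 47.2% and 39.3%, while the 1 HOX call stayed a rise in both.

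**Figure D3:**
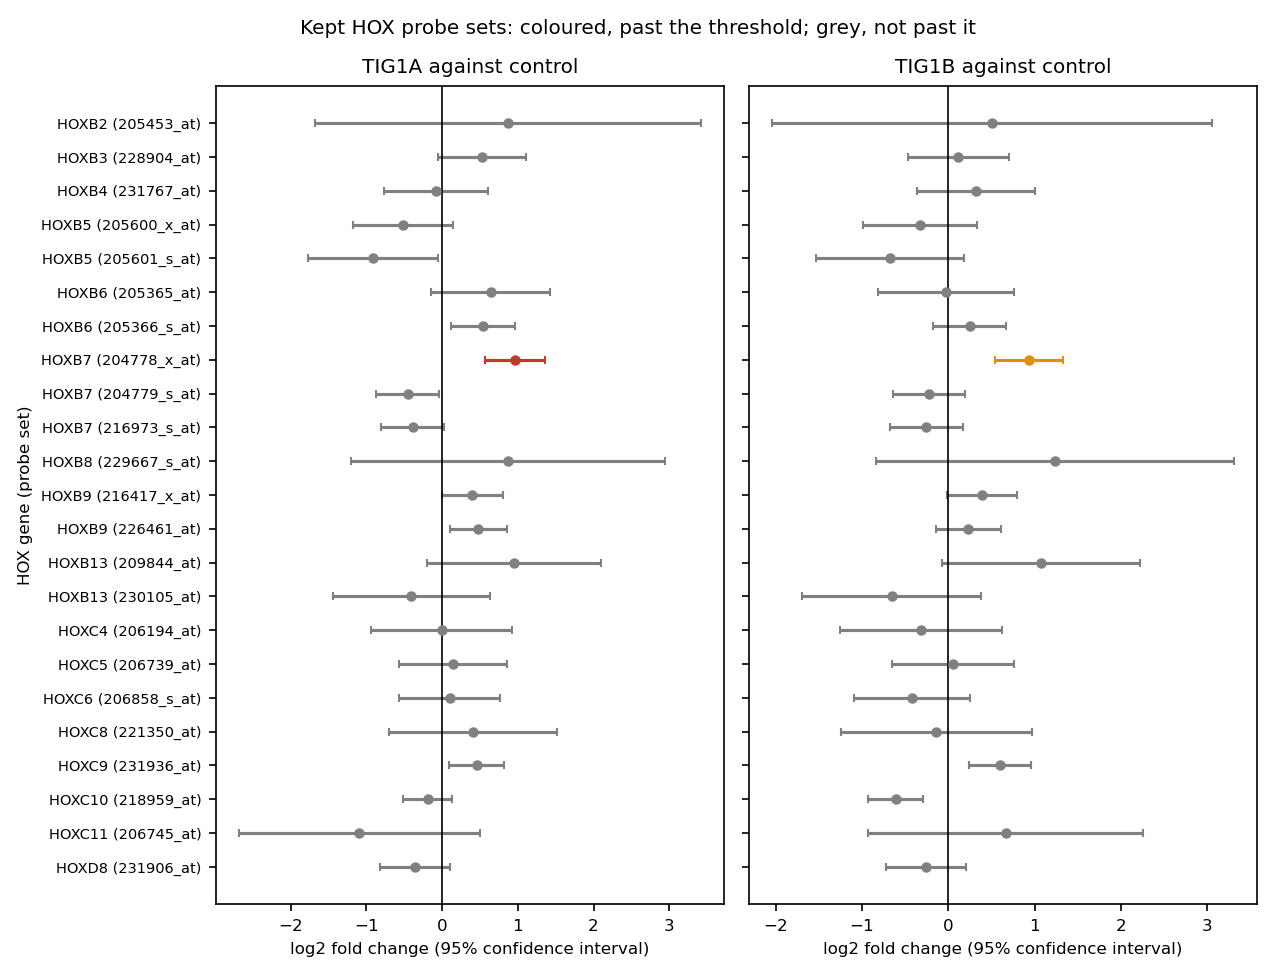
Log2 fold change with 95% confidence interval of each of the 23 HOX probe sets that passed the filter, for TIG1A against control (left) and TIG1B against control (right). Coloured points passed an adjusted p of 0.05 in limma, which was 1 probe set of HOXB7 in each comparison, at 0.96 and 0.93, and grey points did not.

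Among the neighbours of HOXB7, HOXB6 and HOXB9 were higher in TIG1A cells without passing the threshold. HOXB9, a thoracic-level factor, was at 703, 473 and 567 (226461_at) in TIG1A cells and 489, 457 and 503 in TIG1B cells, against 424, 407 and 403 in control cells. All 6 TIG1 arrays lay above the 3 control arrays. The differences were 0.48 for TIG1A (limma adjusted p = 0.123) and 0.23 for TIG1B (limma adjusted p = 0.493). Its probe set 216417_x_at gave 0.40 and 0.39 (limma adjusted p = 0.205 and 0.288), with overlap with control in TIG1A cells only. HOXB6 on 205366_s_at was at 501, 384 and 485 in TIG1A cells and 328, 423 and 368 in TIG1B cells, against 267, 366 and 313 in control cells. TIG1A cells did not overlap with control and TIG1B cells did, with differences of 0.54 (limma adjusted p = 0.123) and 0.25 (limma adjusted p = 0.515). On the dimmer HOXB6 probe set 205365_at they were 0.64 and -0.02, and the groups overlapped.

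HOXB5 and HOXB13 complete the HOXB members whose groups were apart. HOXB5 was chosen after its values were seen. On 205601_s_at it was at 244, 218 and 86.7 in TIG1A cells and 165, 208 and 220 in TIG1B cells, against 328, 338 and 278 in control cells. Both lines lay below control without overlap, by -0.91 (limma adjusted p = 0.177) and -0.67 (limma adjusted p = 0.378), and on 205600_x_at the same signs came with overlap (-0.52 and -0.33). HOXB13, a factor of the hindgut and prostate, was at 220, 191 and 237 (209844_at) in TIG1A cells and 206, 274 and 226 in TIG1B cells, against 187, 44.7 and 165 in control cells. The lines were higher without overlap, and control replicate 2 stood well below the other control arrays. The differences of 0.95 and 1.07 had limma adjusted p-values of 0.277 and 0.301. On its other probe set, 230105_at, HOXB13 gave -0.41 and -0.66, so that the direction for HOXB13 depended on the probe set.

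HOXC9 and HOXC10, posterior genes of the HOXC cluster, had the smallest spread between arrays of one group among the HOX probe sets tested. The residual SD was 0.16 and 0.12 on the log2 scale, where the median was 0.38 for HOX and 0.32 for all probe sets. HOXC9 (231936_at) was at 273, 255 and 257 in TIG1A cells and 306, 261 and 300.1 in TIG1B cells, against 220, 160 and 198 in control cells. Both lines were above control without overlap, by 0.46 (limma adjusted p = 0.123) and 0.60 (limma adjusted p = 0.103). HOXC10 (218959_at) was at 196, 205 and 166 in TIG1A cells and 154, 131 and 138 in TIG1B cells, against 225, 220 and 202 in control cells. TIG1B cells lay below control without overlap, by -0.61 (-0.93 to -0.29; limma adjusted p = 0.0771), and TIG1A cells overlapped with control at -0.19 (limma adjusted p = 0.426).

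No HOX probe set was called between TIG1A and TIG1B cells, where 0.417% of all probe sets were. With limma, 2 had a p under 0.05 before adjustment (13.3% of all probe sets had), and the methods' t-test called 0 after Benjamini-Hochberg adjustment. They were HOXC10, at 0.42 (limma adjusted p = 0.269), and HOXC11, at -1.76 (limma adjusted p = 0.332). HOXC11 (206745_at) was at 15.5, 37.5 and 24.8 in TIG1A cells and 102, 52.2 and 105 in TIG1B cells, with 22.1, 42.4 and 150 in control cells. The lines did not overlap with each other, but control cells overlapped with both. HOXC11 was at or above the array median on 0 arrays of TIG1A, 2 of TIG1B and 1 of control cells. It thus passed the filter through TIG1B cells alone, where it was high, and its difference between the lines is no support for a change. The groups of the 2 lines were apart for 17.4% of HOX and 24.1% of all probe sets.

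HOXB8, HOXB2 and HOXC11 varied most between arrays of one group, and HOXB8 and HOXB2 were singled out after their values were seen. HOXB8 (229667_s_at) was at 1115, 173 and 234 in TIG1A cells and 1270, 336 and 224 in TIG1B cells, against 294, 270 and 92.6 in control cells. The array numbered 1 of each TIG1 line was far above all others, and the remaining arrays of the lines lay in or near the range of control cells. The 3′ to 5′ signal ratio of the GAPDH control probe sets, a sign of RNA quality, was 1.005 and 1.006 on those arrays. It was 0.899 to 0.905 on replicates 2 and 3 of either line and 0.924 to 0.950 in control cells. The same ratio for actin went the other way, with 1.135 and 1.117 on those arrays. For actin it was 1.152 to 1.229 on replicates 2 and 3 of either line and 1.212 to 1.275 in control cells. The part of either ratio in the HOXB8 values was not tested. The differences were 0.87 for TIG1A and 1.23 for TIG1B with intervals of -1.20 to 2.95 and -0.84 to 3.31 (limma adjusted p = 0.581 and 0.503).

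HOXB2 (205453_at) was at 43.7, 192 and 180 in TIG1A cells and 22.0, 223 and 146 in TIG1B cells, against 18.2, 135 and 101 in control cells. The array numbered 1 was the low one in each group. Its residual SD of 1.54 was the largest of the 23 probe sets, followed by 1.25 for HOXB8 and 0.95 for HOXC11. The HOXB2 differences of 0.87 and 0.51 had 95% confidence intervals of -1.68 to 3.42 and -2.04 to 3.06.

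**Figure D4:**
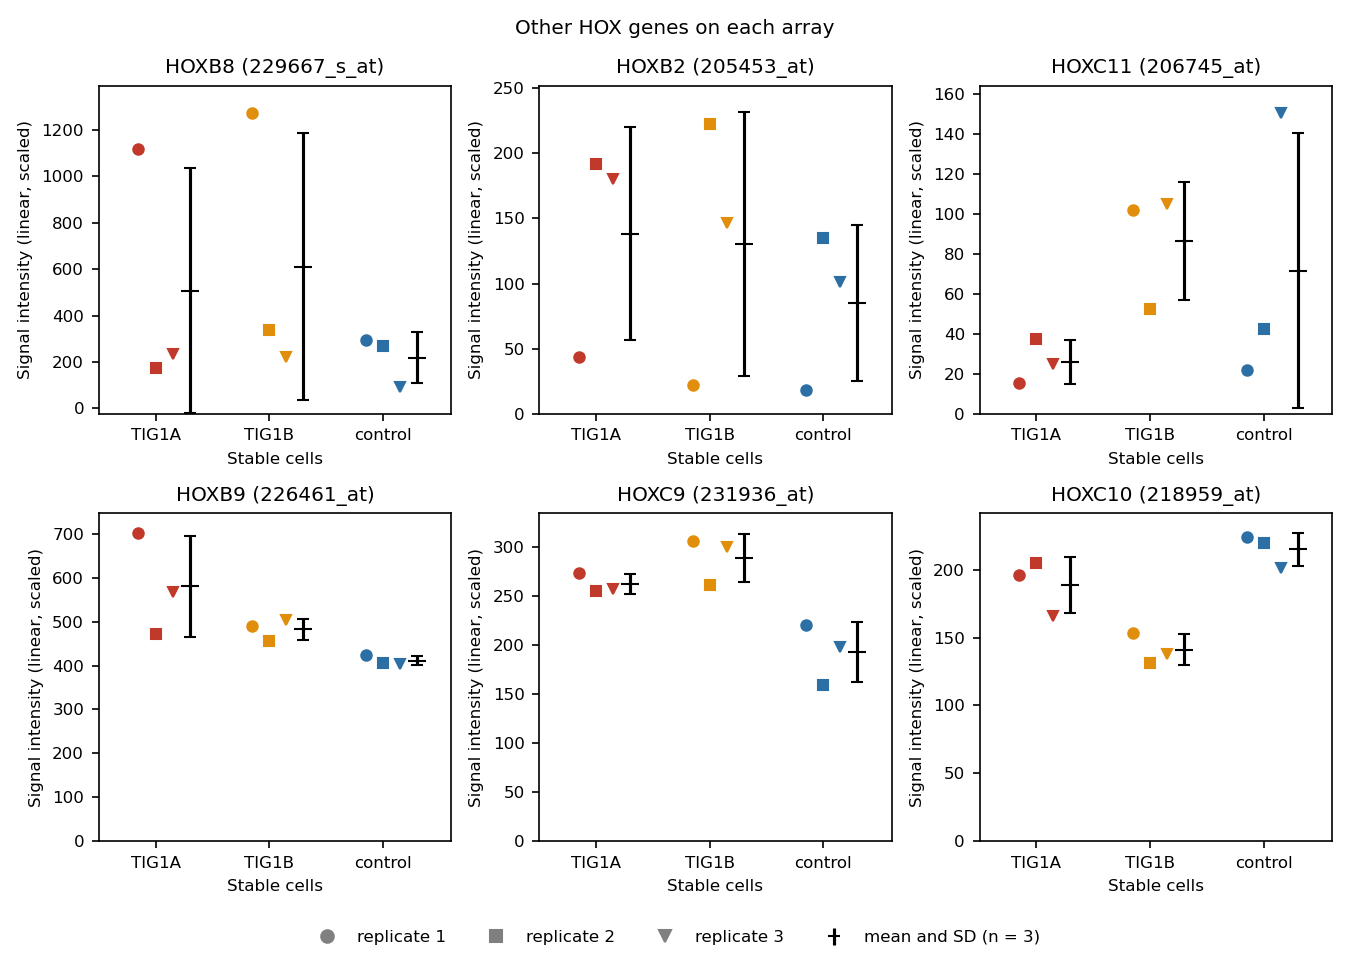
Signal intensity (linear, scaled) of 6 HOX probe sets on each array, with TIG1A, TIG1B and control cells from left to right, 1 symbol per replicate number, and bars for the mean and SD (n = 3; in the HOXB8 panel the axis runs below 0 to hold the bar). HOXB8 is high on the arrays numbered 1 of both lines (1115 and 1270), and HOXC9 is higher in both lines (255 to 306) than in control cells (160 to 220).

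The remaining members overlapped between groups in both comparisons with control. HOXD8 (231906_at) was at 188, 253 and 212 in TIG1A cells and 179, 265 and 261 in TIG1B cells, against 311, 271 and 252 in control cells, with differences of -0.36 and -0.26 (limma adjusted p = 0.313 and 0.533). HOXC6 (206858_s_at), which acts at thoracic levels, was at 293, 339 and 396 in TIG1A cells and 189, 274 and 256 in TIG1B cells, against 488, 239 and 275 in control cells. Its differences of 0.10 and -0.42 had limma adjusted p-values of 0.863 and 0.476. HOXB3, HOXB4, HOXC4, HOXC5 and HOXC8 had differences between -0.31 and 0.53 in both comparisons. HOXC4 and HOXC5, with the shared upstream window printed above, differed from control by -0.01 and 0.14 in TIG1A cells and by -0.31 and 0.05 in TIG1B cells.

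Of the proteins that act on HOX clusters, few probe sets passed the threshold. PCGF2, a Polycomb repressor, fell on 203792_x_at in TIG1A cells (339, 169 and 191, against 480, 510.4 and 562 in control cells) by 1.22 on the log2 scale (limma adjusted p = 0.0357). It fell on 203793_x_at in TIG1B cells (153, 248 and 229, against 562, 603 and 622 in control cells) by 1.53 (limma adjusted p = 0.0393). In the other line these probe sets also lay below control without overlap. The difference was -1.14 on 203792_x_at in TIG1B cells (limma adjusted p = 0.071) and -0.82 on 203793_x_at in TIG1A cells (limma adjusted p = 0.105). On 213551_x_at PCGF2 gave -0.81 for TIG1A and -0.45 for TIG1B, and on 214239_x_at 0.04 and 0.38. Its 4 probe sets thus did not share a sign, and all carry the suffix x_at. Over the list of Polycomb repressors 28 probe sets of 12 genes were tested, of 16 listed, with a median of -0.01 for TIG1A and -0.05 for TIG1B. PCGF2 was the 1 gene called in each by limma, on 1 of the 28 probe sets. Over all probe sets 6.06% were called for TIG1A and 1.78% for TIG1B. At an unadjusted limma p under 0.05, 4 of the list were higher and 4 lower in TIG1A cells, where 25% of all reached it. In TIG1B cells 2 were higher and 2 lower, where 18.5% of all did. The methods' t-test with adjustment called 1 probe set of this list in TIG1A cells, of EZH1, a Polycomb methyltransferase (203249_at, 0.32; limma adjusted p = 0.206), and no PCGF2 probe set in either line. Among Trithorax proteins and other activators, MEN1, a partner of the KMT2A methyltransferase, fell in TIG1A cells (1529, 1436 and 1759, against 2149, 2728 and 2480 in control cells) by 0.64 (limma adjusted p = 0.0495). It was the 1 probe set called of 28 (11 genes tested of 12 listed), where 6.06% of all probe sets were, and the methods' t-test with adjustment called 0 in this list. In TIG1B cells MEN1 gave -0.21 (limma adjusted p = 0.499).

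TALE cofactors had 0 of 16 probe sets called in limma (7 of 9 listed genes), with 1 higher at an unadjusted p under 0.05 in each line. Over all probe sets 6.06% were called in TIG1A and 1.78% in TIG1B cells, and 25% and 18.5% had such a p. The TALE median was 0.06 for TIG1A and 0.04 for TIG1B, beside -0.04 and -0.03 over all probe sets. The retinoid list, the receptors, CYP26 enzymes and binding proteins through which retinoic acid reaches HOX clusters, also had 0 of 15 probe sets called in limma (7 of 10 listed genes). At an unadjusted p under 0.05, 2 were higher and 5 lower in TIG1A cells, and 1 higher and 4 lower in TIG1B cells, to be read against the same shares of 25% and 18.5%. The median of the retinoid list was -0.38 for TIG1A and -0.37 for TIG1B, beside -0.04 and -0.03. The methods' t-test with adjustment called 0 in the TALE and retinoid lists.

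The genes beside the clusters gave a view of the surrounding chromosome. Of 36 flanking genes 30 were tested on 71 probe sets, and limma called 1 higher and 1 lower in TIG1A cells against control, where 6.06% of all probe sets were called. Without adjustment 2 were higher and 11 lower at a p under 0.05 (25% of all probe sets reached it), and the methods' t-test with adjustment called 0. TAX1BP1, beside the HOXA cluster, rose to 8520, 8182 and 8195 (200977_s_at) in TIG1A cells, against 5741, 5403 and 5927 in control cells, a difference of 0.55 (limma adjusted p = 0.0495). Its other probe sets gave 0.33 (200976_s_at, limma adjusted p = 0.225) and -0.20 with overlap (213786_at, limma adjusted p = 0.528), so that the call holds for 1 of 3 probe sets. UBE2Z, beside the HOXB cluster, fell to 2014, 1945 and 1951 (222395_s_at) in TIG1A cells, against 2657, 3100 and 3377 in control cells, a difference of -0.62 (limma adjusted p = 0.0396). On 217750_s_at UBE2Z gave -0.18 with overlap (limma adjusted p = 0.456). In TIG1B cells limma called 0 of the 71, where 1.78% of all probe sets were called, and the methods' t-test with adjustment called 0. At an unadjusted limma p under 0.05, 6 were higher and 7 lower in TIG1B cells, where 18.5% of all probe sets had such a p. The median of the genes flanking HOXB was -0.27 for TIG1A and -0.12 for TIG1B. Beside HOXA it was -0.17 and 0.08, beside HOXC -0.22 and -0.10, and beside HOXD 0.01 and -0.24. Over all probe sets the median was -0.04 and -0.03. Between TIG1A and TIG1B cells limma called 0 of the 71, where 0.417% of all were called, and the methods' t-test with adjustment also called 0. At an unadjusted limma p under 0.05, 2 were higher and 3 lower in TIG1A than in TIG1B cells, where 13.3% of all had such a p. Leaving out single arrays ended the calls on PCGF2, MEN1, UBE2Z and TAX1BP1. PCGF2 on 203792_x_at in TIG1A cells passed only without TIG1A replicate 1 or control replicate 1. PCGF2 on 203793_x_at in TIG1B cells passed only without control replicate 1. In TIG1A cells MEN1 and UBE2Z also passed only without control replicate 1, and TAX1BP1 never did. PCGF2 on 203792_x_at in TIG1B cells, not called with all arrays, passed without TIG1A replicate 1.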

How the data were processed

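Total RNA of 9 cultures was measured, 1 array each. The deposited value of a probe set is a linear signal intensity that the authors computed in GCOS with global scaling. Scanner images and Present calls were not analysed here. The labels give MFP as 5 nM, and the description of the series gives another unit.

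Leaving out 62 array controls, the filter demanded the 50th percentile of the array on 2 or more of 3 arrays in any group, and 29977 of 54675 probe sets (13407 genes) met it. Intensities under 1 were set to 1 and log2-transformed. One mean per group was fitted to all 9 arrays with limma 3.58.1 in R 4.3.3, and p-values were adjusted over all kept probe sets by the Benjamini-Hochberg procedure at 0.05. The 9 arrays are independent cultures of 3 clones, no pair is identical, and the number of arrays limits the precision. Same-numbered arrays of different groups did not pair as a whole. Their deviations from the group means correlated over 0.1 in 1 of 9 such pairs. That pair was the arrays numbered 1 of the TIG1A and TIG1B lines (0.192). Those arrays gave -0.104 to -0.126 against replicates 2 and 3 of the other line.

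The members and gene lists were chosen with earlier results of these data known, and the study had itself picked HOXB7 from these arrays, so its call is not independent evidence. Named HOX probe sets were those called, all of HOXB7, those apart between groups by at least 2-fold, and the 3 with the smallest p per cluster and comparison with control. For others the text says that they were picked with their values known. Alternatives were quantile normalization, median centring, an offset of 50, no filter, a 75th percentile filter, the 6 arrays of a comparison alone, a replicate block, eBayes with trend and robust options, the methods' t-test and each array left out. The annotation used here names 1 of 11 HOXA genes, so nearly the whole HOXA cluster was not analysed here.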

Additional observations from a re-analysis of the deposited data

How the results depend on the processing

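HOX calls in TIG1A cells against control (1 in the fit described) became 0 without the filter, with the 6 arrays alone, with the replicate block, with the methods' t-test after adjustment and, as an alternative chosen after seeing the data, with the arrays numbered 1 of both lines left out. They became 3 with the 75th percentile filter (HOXB6, HOXB7 and HOXB9), where 8 HOX probe sets were tested. That filter kept fewer probe sets than 29977, and 3601 of those kept, or 24.3%, were called. With the unadjusted methods' t-test the HOX calls became 4 of 23, where 6150 of all 29977 probe sets were called. In TIG1B cells the 1 call became 0 in the same 5 cases. It became 6 of 23 with the unadjusted methods' t-test, where 4594 of all 29977 were called. Between TIG1A and TIG1B, 0 became 2 of 23 with that test, where 4775 of all 29977 were called. Leaving out 1 array gave 0 to 1 calls in either comparison with control. Over all probe sets, the calls ran from 255 to 2799 (TIG1A) and 59 to 1041 (TIG1B) with 1 array left out, beside 1818 and 535. The replicate block, run although only 1 of 9 same-numbered pairs correlated over 0.1 (-0.04 to 0.19), gave 637 and 2, and for HOXB2, low on the array numbered 1 of every group, a smaller SE of 0.24 (limma adjusted p = 0.108 for TIG1A and 0.332 for TIG1B). Trend and robust options gave 3571 and 1563, the 6 arrays alone 166 and 15, and the adjusted methods' t-test 121 and 6. A change of filter also changed the number of probe sets tested. The 75th percentile filter gave 3601 and 1794, or 24.3% and 12.1% of the probe sets it kept. No filter gave 59 and 11, or 0.108% and 0.02% of the probe sets then tested. The causes were not tested. HOXB7 on 204778_x_at kept its direction in every alternative. Its limma adjusted p in TIG1A and TIG1B was 0.123 and 0.191 without the filter, 0.0809 and 0.135 with 6 arrays, 0.0522 and 0.0872 with the replicate block and 0.0727 and 0.136 without the arrays numbered 1.

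Small log2 differences changed sign. With median centring HOXB4 in TIG1A was 0.087, HOXC4 in TIG1A 0.16, HOXB6 (205365_at) in TIG1B 0.12 and HOXC8 in TIG1B 0.0057. With quantile normalization HOXC4 in TIG1A was 0.12 and HOXB6 (205365_at) in TIG1B 0.11, and with an offset of 50 HOXC4 in TIG1A was 0.011. Without the arrays numbered 1, HOXB6 (205365_at) in TIG1B was 0.16 and HOXC8 in TIG1B 0.26. With 1 array left out, the range was -0.030 to 1.56 (TIG1A) and -0.39 to 1.52 (TIG1B) for HOXB2, -0.12 to 0.31 for HOXB3 (228904_at, TIG1B), -0.34 to 0.21 for HOXB4 (TIG1A), -0.27 to 0.19 for HOXB6 (205365_at, TIG1B), -0.45 to 0.22 for HOXC4 (TIG1A), -0.27 to 0.41 for HOXC5 (TIG1B), -0.11 to 0.41 for HOXC6 (TIG1A) and -0.47 to 0.26 for HOXC8 (TIG1B).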
